A study of Mus musculus with 6 samples.

Results

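The enzymes that cross-link, cut and modify proteins and lipids of cornifying keratinocytes were followed in CV/Fol taste cells at 2 and 6 months of age, that is in cells from the circumvallate and foliate papillae, the taste bud fields of the hind part of the tongue. They are 9 genes chosen for their role and found by gene symbol, and all 9 are among the 23361 genes of the deposited table. Isolated CV/Fol taste cells of C57BL/6 mice were pooled, 4 mice to a pool at 2 months and 3 mice to a pool at 6 months, and 3 pools were sequenced per age. The cells were freed with collagenase and dispase and drawn into a capillary, and the labels name no other treatment. The design text of the series also names 3 months in one place, whereas the sample labels give 2 and 6 months. Each gene has 1 FPKM value per age, that is mapped fragments scaled by transcript length and by the size of the library, which is the authors' value over the 3 pools. Values of single pools were not analysed here, so no SD, error or test stands behind any difference below, and the sequencing depth is unknown. In RNA of whole cell pools, fewer cells of a type and less RNA per cell cannot be told apart.

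Cornification is the last step of keratinocyte differentiation, in which a living cell becomes a flat, dead and insoluble one. Transglutaminases join envelope proteins such as loricrin, involucrin and small proline-rich proteins by covalent bonds under the plasma membrane. Peptidylarginine deiminases convert arginine to citrulline in keratins and filaggrin-type proteins, and the proteases caspase-14 and Asprv1 process profilaggrin. The lipoxygenases Alox12b and Aloxe3 act one after the other on linoleate-bearing ceramides, which are then attached to the protein envelope. These steps are best known from the epidermis, and the surface of the mouse tongue also holds keratinizing epithelium.

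Of the 9 enzymes, 8 were expressed, meaning that their values of the 2 ages averaged 1 FPKM or more, and Asprv1 had the largest difference between the ages among them. Its level was 753 FPKM at 2 months but 361 FPKM at 6 months. The 3 transglutaminases, the lipoxygenase Alox12b, Padi1 and Casp14 had nearly the same value at both ages, with log2 changes between -0.17 and 0.07. Aloxe3 lay between these and Asprv1, with 47.4 FPKM in younger and 36.3 FPKM in older mice. Padi3 was close to 0 at both ages. Changes are differences of log2(FPKM + 1), 6 months minus 2 months, a scale on which changes of weakly expressed genes look smaller than they are. Where a pair of levels is given for a gene below, the value at 2 months comes before that at 6 months.

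**Figure D1:**
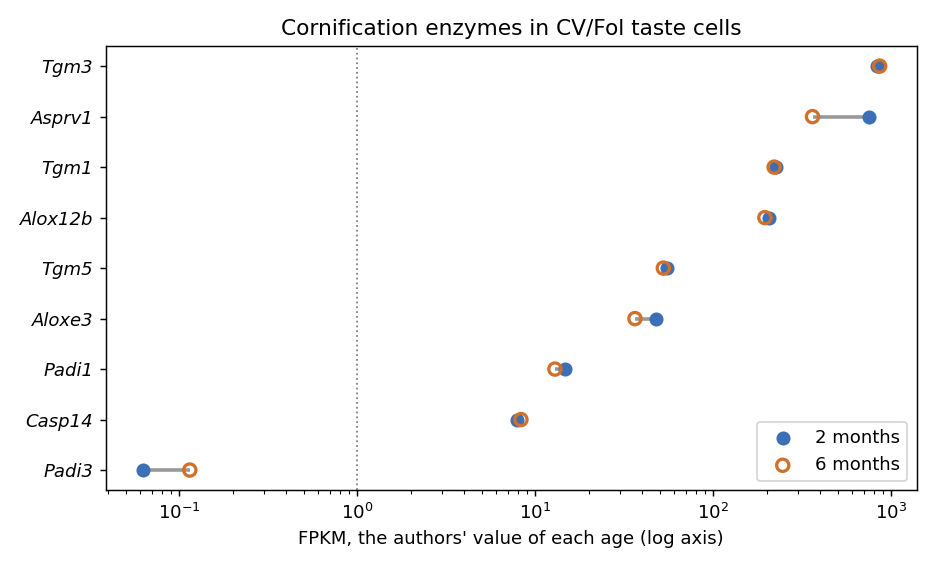
Level of each cornification enzyme at 2 months (filled blue) and 6 months (open orange) in FPKM on a log axis, 1 value per age, with a dotted line at 1 FPKM. The pair of points is widely spaced for Asprv1 (753 and 361 FPKM), nearly coincides for Tgm3, Tgm1 and Casp14, and falls left of the line for Padi3.

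A 1.5-fold or greater difference on this log2 scale was counted as a change in level, since the values used here carry no replicates to test. By this count 1 of the 8 expressed enzymes was lower at 6 months, 0 were higher, and 7 did not reach 1.5-fold. Over all 12652 expressed genes, 1.72% were lower and 1.05% higher by that much. At 2-fold, the same single enzyme, Asprv1, was counted, and 1.04% of all expressed genes were lower by 2-fold. Disregarding size, 6 of the 8 were lower at 6 months, beside 53.7% of all expressed genes. The median log2 change was -0.08 for the 8 enzymes and -0.01 for all expressed genes, whose quartiles were -0.10 and 0.08. A count of 1 among 8 is too small to set the enzymes apart from the other genes.

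Asprv1 encodes a retroviral-type aspartic protease of the stratum granulosum that cuts the linker of profilaggrin. It is a gene of 1 exon on the plus strand of chromosome 6, from 86628164 to 86629710 in GRCm38, with a transcript of 1547 bases and no other annotated gene on top of it. At 2 months it was nearly as abundant as Tgm3, which had 1.10 times its level, whereas at 6 months Tgm3 had 2.38 times its level. The 6 month value was 52.1% lower, a log2 change of -1.06. Its mean level was exceeded by 0.775% of all genes in the table. A change as low or lower was found in 125 of the 12652 expressed genes, or 0.988%. Small RNA genes and genes listed at 0 in 1 age swell that count, and without them it was 64 of 12423 genes. Among genes that averaged 100 FPKM or more, 4.27% were lower by 1.5-fold, or 2.67% without the small RNA genes and the genes at 0 in 1 age. A change as low as that of Asprv1 was found in 22 of these 866 genes, or in 13 of 787 without those groups. The expressed gene with the most similar pair of values was Defb4, a beta-defensin, at 785 and 362 FPKM, a distance of 0.06 on the 2 log2 axes. The next was the microRNA gene Mir1892 at a distance of 0.32, whose FPKM value is divided by a very short length.

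The neighbours of Asprv1 on chromosome 6 did not share its difference in level. Pcbp1, an RNA-binding protein gene 101842 bases before it, was at 219 and 200 FPKM. Mxd1, a Max partner 17331 bases after it, was at 46.4 and 39.0 FPKM.

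The bases just before the transcription start are shown for Asprv1, the enzyme with the large difference, and for Tgm3, the most abundant enzyme, which showed none. Promoter sequences are those of RefSeq for GRCm38.p6, were found for 8 of the 9 enzymes in 9 promoter entries, and are printed 5′ to 3′ on the plus strand up to the first annotated start. Capitals mark matches, on either strand, to TGANTCA (the AP-1 motif), TGACGTCA (the cyclic AMP response element), TATAAA (the TATA box) and GGGCGG (the Sp1 motif). The Asprv1 window is chr6:86627924-86628163 and the Tgm3 window is chr2:130012090-130012339.
Asprv1: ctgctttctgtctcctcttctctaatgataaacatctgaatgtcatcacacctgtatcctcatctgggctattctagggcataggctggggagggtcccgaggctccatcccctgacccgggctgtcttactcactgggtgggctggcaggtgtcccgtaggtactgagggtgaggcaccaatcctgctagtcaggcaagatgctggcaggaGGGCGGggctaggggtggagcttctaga
Tgm3: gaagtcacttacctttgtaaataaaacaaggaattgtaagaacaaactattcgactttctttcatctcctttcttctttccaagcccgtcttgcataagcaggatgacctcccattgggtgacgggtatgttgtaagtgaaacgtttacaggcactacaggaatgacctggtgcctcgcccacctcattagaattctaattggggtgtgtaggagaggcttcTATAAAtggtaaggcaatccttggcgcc
The Asprv1 window holds 1 GGGCGG match, from 38 to 33 bases before the RefSeq start, and no TATAAA. The Tgm3 window holds 1 TATAAA match, from 28 to 23 bases before the start, and no GGGCGG. In the 250 bases before the start, TGANTCA was found in 0 of the 9 entries of the enzymes, beside 6.75% of all 32851 promoters, and TGACGTCA in 0, beside 1.55%. TATAAA was found in 1 of the 9 entries (12.4% of all promoters) and GGGCGG in 4 (32.7%). The matches did not overlap one another in the printed windows. A match of letters describes these windows and says nothing of binding, and the lack of one says only that the letters are not there.

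The 3 transglutaminases had nearly the same levels at both ages. Tgm3 encodes a soluble zymogen that cross-links small proline-rich proteins and hair proteins, and had 828 and 860 FPKM, a log2 change of 0.05. A share of 0.578% of the genes in the table had a higher mean level. Tgm1, the membrane-anchored enzyme that builds the envelope and binds ceramides to it, had 224 and 220 FPKM. Its log2 change of -0.03 took the opposite sign, 0.01, once the upper quartiles of the ages were made equal. Tgm5, which works in the upper epidermis, had 54.9 and 52.4 FPKM, a log2 change of -0.07. The order Tgm3, Tgm1, Tgm5 held at both ages, with Tgm3 at 3.69 and then 3.91 times Tgm1, and Tgm1 at 4.08 and then 4.19 times Tgm5. These ratios are taken within an age, so they do not depend on how the ages were scaled to each other.

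The other transglutaminase genes give the family's makeup. Tgm7, next to Tgm5 on the minus strand of chromosome 2 with 7723 bases between them, had 59.2 and 47.4 FPKM. It was thus about as abundant as Tgm5 at both ages. Tgm2, the widely expressed tissue transglutaminase, had 2.83 and 4.198 FPKM, a log2 change of 0.44, and Tgm4, known from the prostate, had 2.97 and 3.19 FPKM. Tgm6, which follows Tgm3 on chromosome 2 after 62016 bases, had 0.502 and 0.203 FPKM. Tgm3 made up 70.6% of the summed FPKM of the 7 Tgm genes at 2 months and 72.4% at 6 months. The 3 cornification members together made up 94.4% and 95.4%. The sum over the family was 1172 and 1187 FPKM. Of the 6 listed relatives, which also include F13a1 and Epb4.2 at under 1 FPKM, 3 were expressed and 0 reached 1.5-fold.

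The coding sequences of the transglutaminases share only short identical runs. Identity over aligned bases was 60.8% between Tgm1 and Tgm3, 64.6% between Tgm1 and Tgm5 and 64.8% between Tgm5 and Tgm7, with longest identical runs of 16, 22 and 24 bases. An antisense gene of GENCODE, Gm49067, overlaps exon sequence of Tgm1, and the methods do not state a strand-specific count, so reads of the pair cannot be separated. Tgm1 lies on chromosome 14 from 55700009 to 55713926, Tgm3 on chromosome 2 from 130012349 to 130050399 and Tgm5 on chromosome 2 from 121046111 to 121085841 (GRCm38).

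**Figure D2:**
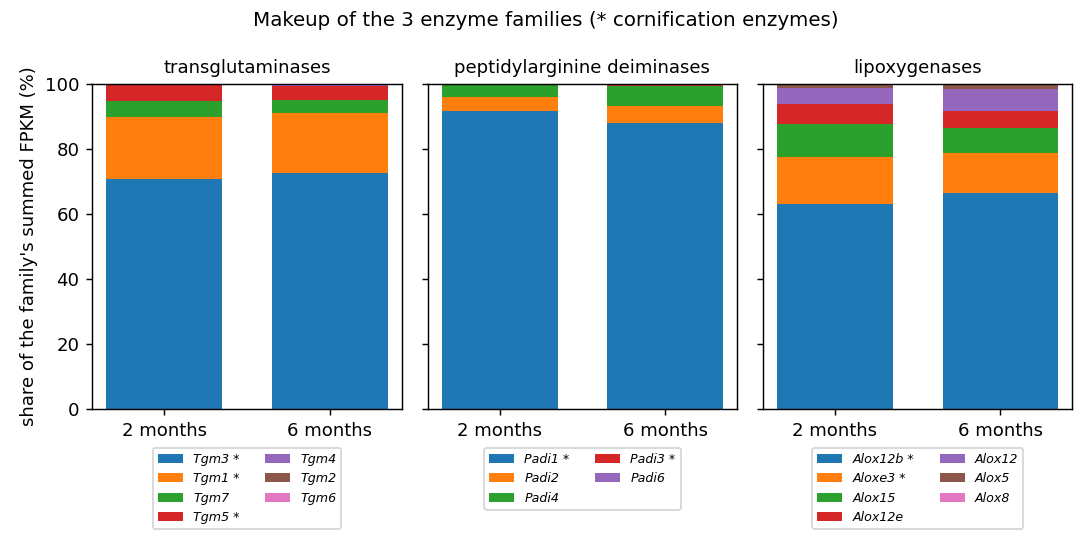
Share of each gene in the summed FPKM of the 7 Tgm, 5 Padi and 7 Alox genes at 2 and 6 months, as stacked bars from 0 to 100%, with cornification enzymes starred. Tgm3 (70.6% and 72.4%), Padi1 (91.7% and 87.9%) and Alox12b (63.0% and 66.4%) take the greater part of their family at both ages.

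The paired lipoxygenases differed from each other. Alox12b, which adds oxygen to the linoleate of acylceramides, had 207 and 195 FPKM, a log2 change of -0.08. Aloxe3, which isomerizes the hydroperoxide that Alox12b makes, was 23.5% lower at 6 months, a log2 change of -0.38 that did not reach 1.5-fold. A change as low as that of Aloxe3 was found in 3.22% of expressed genes, and in 2.65% without small RNA genes and genes at 0 in 1 age. The level of Alox12b was 4.35 times that of Aloxe3 at 2 months and 5.37 times at 6 months. Whether this difference between the ages exceeds the spread between pools cannot be said without the values of the pools.

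The genes lie side by side on the plus strand of chromosome 11, Aloxe3 from 69125896 to 69149115 and Alox12b from 69156989 to 69169792, with 7873 bases between them. Their coding sequences had 63.1% identity over aligned bases and a longest identical run of 29 bases. Alox8, the next gene after Alox12b, had 1.03 FPKM at both ages. Further along chromosome 11, Alox15 had 33.3 and 22.1 FPKM (log2 change -0.57), Alox12 had 16.1 and 20.2 FPKM (0.31) and Alox12e had 20.4 and 15.2 FPKM (-0.40). Alox5, the leukotriene-forming enzyme on chromosome 6, had 3.19 and 3.85 FPKM. All 6 relatives, counting the Alox5 activator Alox5ap, were expressed, and 0 reached 1.5-fold on the log2(FPKM + 1) scale. Alox15 was at the limit, since its plain FPKM ratio of 2 to 6 months was 1.51. The family sum went from 328 to 293 FPKM, of which Alox12b and Aloxe3 made up 77.4% at 2 months and 78.8% at 6 months.

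Of the 2 deiminases, 1 was expressed. Padi1 had 14.6 and 12.9 FPKM, a log2 change of -0.17. Padi3, the deiminase of hair follicle and upper epidermis that acts on trichohyalin and filaggrin, had 0.0623 and 0.115 FPKM, and no fold is given at levels so far under 1 FPKM. Yet the genes are next to each other on the minus strand of chromosome 4, Padi3 from 140785365 to 140810648 and Padi1 from 140812983 to 140845778, with 2334 bases between them. They had 68.5% identity over aligned coding bases and a longest identical run of 63 bases, so single reads within that run can fit both. The other deiminases of the cluster were also low, Padi2 with 0.648 and 0.780 FPKM and Padi4 with 0.603 and 0.886 FPKM, while Padi6 was listed at 0 at both ages. Padi1 was therefore the only expressed gene of the 5 deiminases. Gm13032, annotated on the opposite strand across Padi1 exons, had 0.550 and 0.512 FPKM.

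Casp14 encodes a caspase of cornifying cells that takes part in filaggrin breakdown and not in apoptosis. It had 7.87 and 8.30 FPKM, a log2 change of 0.07. The gene lies on the minus strand of chromosome 10 from 78711991 to 78718294. At 2 months Asprv1 had 95.7 times the level of Casp14, and at 6 months 43.4 times, so these proteases differed widely in level at both ages. The substrate they share in epidermis is profilaggrin (Flg), for which no value was read here. Flg2, of the same family, had 0.0226 and 0.0044 FPKM. Of 9 other caspases, 8 were expressed and 0 reached 1.5-fold in either direction, with log2 changes from -0.26 to 0.19. The highest was the inflammatory caspase Casp1 with 55.1 and 54.9 FPKM.

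**Figure D3:**
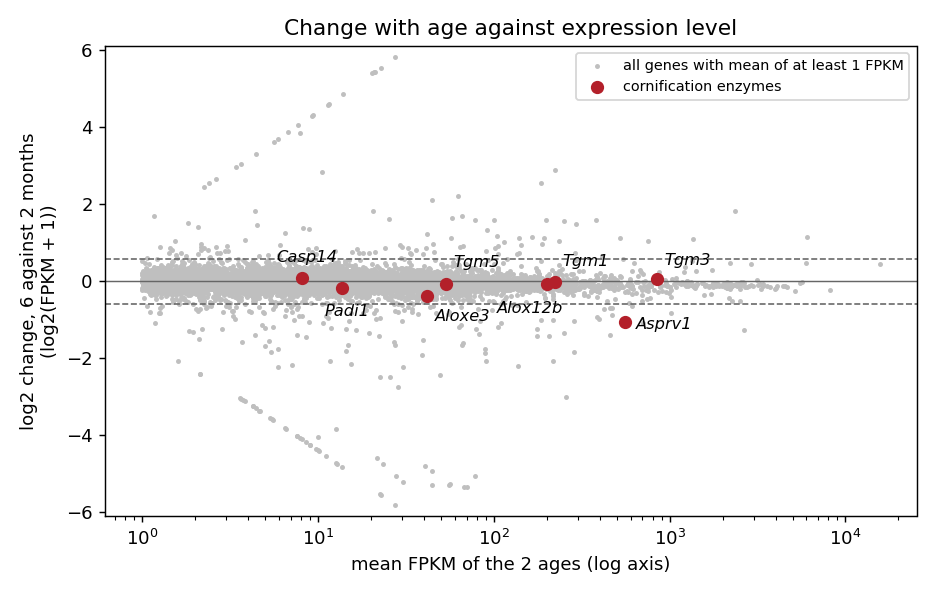
Log2 change from 2 to 6 months against the mean FPKM of the 2 ages (log axis), with grey points for all expressed genes, red points for the 8 expressed enzymes and dashed lines at 1.5-fold. Asprv1 lies below the lower line at -1.06, the other enzymes lie between the lines, and 25 genes beyond 6 on the log2 axis are not drawn.

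The proteins that these enzymes work on, or that are laid down beside them, were read for comparison. Of 40 structural proteins of the cornified layer, 37 were analysed and 32 were expressed. At 6 months 23 of the 32 were lower by 1.5-fold, beside 1.72% of all expressed genes. None was higher by that much and 9 did not reach it. Their median log2 change was -1.16. The late cornified envelope (Lce) genes, groups of similar copies between which reads may be split, make up 15 of the 32. Their identity was not measured here. The 9 expressed Lce1 genes had log2 changes from -5.34 to -4.58, and the 6 Lce3 genes from -1.85 to -0.53. Without them 9 of 17 were lower, with a median of -0.59. Loricrin (Lor), the main envelope protein, had 1292 and 733 FPKM, so that its level relative to Tgm1 went from 5.76 to 3.34. Keratin 10 (Krt10) had 150 and 70.5 FPKM, trichohyalin (Tchh) 23.7 and 9.17 FPKM and hornerin (Hrnr) 6.98 and 2.64 FPKM, log2 changes of -1.08, -1.28 and -1.13. Corneodesmosin (Cdsn), an adhesion protein of corneocyte junctions, had 147 and 63.9 FPKM, and the small proline-rich genes Sprr2d and Sprr2h, of a family of similar copies, had log2 changes of -2.15 and -1.01. Not all envelope proteins were lower by 1.5-fold. The small proline-rich protein Sprr1a, the most abundant of the list, was lower but short of it, at 3554 and 3105 FPKM. Sprr3 was higher at 6 months, with 558 and 667 FPKM. Desmoplakin (Dsp), a desmosome protein joined to the envelope, had 611 and 747 FPKM. Relative to Asprv1, the level of Krt10 was 0.199 at 2 months and 0.195 at 6 months, that of Lor went from 1.72 to 2.03 and that of Sprr1a from 4.72 to 8.61.

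Genes of the lipid and protease steps that work beside the enzymes were read in the same way. The acylceramide pathway makes the lipid that Alox12b oxidizes and attaches it to the envelope. Of its 20 genes, 17 were expressed and 0 reached 1.5-fold, with a median log2 change of -0.15. Disregarding size, 12 of the 17 were lower, beside 53.7% of all expressed genes. The fatty acid elongase Elovl1 had 150 and 135 FPKM, and Elovl4 had 124 and 97.0 FPKM. Cyp4f39, the fatty acid hydroxylase of the pathway, had 108 and 109 FPKM. The epoxide hydrolase Ephx3, which acts after Aloxe3, had 79.7 and 65.9 FPKM. Of 17 measured genes of filaggrin breakdown and protease control, 14 were expressed and 2 were lower by 1.5-fold, the kallikreins Klk7 and Klk8. Disregarding size, 12 of the 14 were lower, and the median log2 change was -0.32. By 1.5-fold, 1.72% of all expressed genes were lower. Klk7, which sheds corneocytes by cutting their junctions, had 39.1 and 6.20 FPKM, a log2 change of -2.48. Klk8, named here after its values were seen, had 123 and 73.0 FPKM. The kallikrein Klk14 had 702 and 469 FPKM, a log2 change of -0.58 just short of 1.5-fold. Cathepsin D (Ctsd), at 467 and 460 FPKM, and the kallikrein inhibitor Spink5, at 156 and 163 FPKM, were near even.

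**Figure D4:**
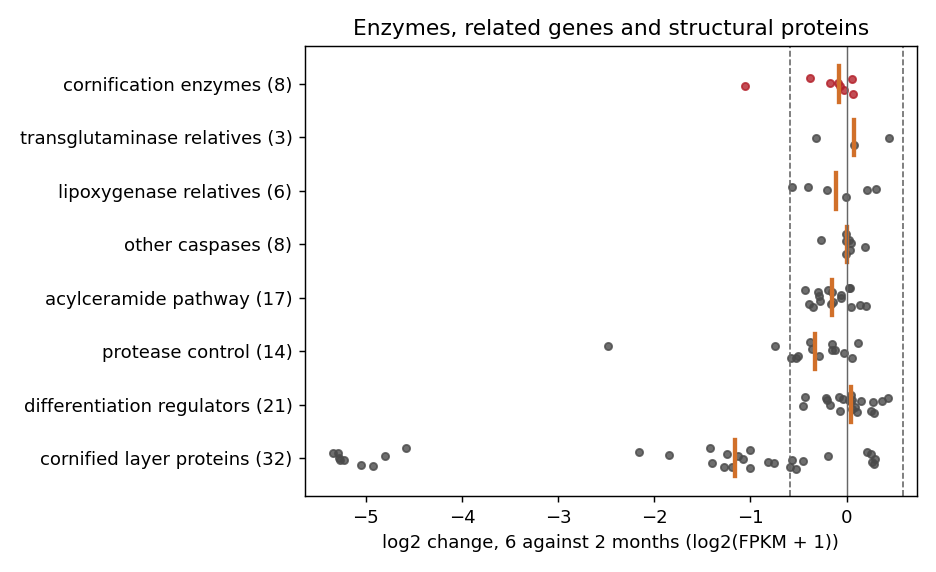
Log2 change from 2 to 6 months of each expressed gene (points) in the 8 cornification enzymes and 7 lists of related genes, with the number of expressed genes in brackets, orange bars at the medians and dashed lines at 1.5-fold. The enzymes (median -0.08) and the acylceramide pathway (median -0.15) lie close to 0, whereas 23 of 32 cornified layer proteins lie left of the lower line.

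Of 22 transcription regulators of keratinocyte differentiation, 21 were expressed and 0 reached 1.5-fold, with a median log2 change of 0.05. Hopx had 424 and 369 FPKM, Klf4 249 and 214 FPKM, Grhl3 121 and 126 FPKM and Barx2 102 and 113 FPKM. Grhl3 is known as an activator of Tgm1 in epidermis. Of 8 expressed AP-1 factors, 4 were lower by 1.5-fold, namely Fos with 139.7 and 37.5 FPKM, Jun with 90.3 and 40.1 FPKM, Fosb with 12.98 and 4.14 FPKM and Atf3 with 17.1 and 6.79 FPKM. Of the factors short of it, Junb had 182 and 125 FPKM, a log2 change of -0.54, and Fosl2 had 42.2 and 42.7 FPKM. Disregarding size, 7 of the 8 factors were lower at 6 months. Over all expressed genes, 1.72% were lower by 1.5-fold and 53.7% at any size.

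The label of isolated taste cells was set against markers of the cells a pool could hold. All 8 markers of type II cells and all 7 of type III cells were expressed, and of 3 type I markers 2 were, with Slc1a3 under 1 FPKM. Of these 17 expressed taste cell markers 0 reached 1.5-fold, and their sums went from 76.1 to 66.4 FPKM (type I), 373 to 360 FPKM (type II) and 47.1 to 50.1 FPKM (type III). The 7 basal epithelial markers, led by Krt5 and Krt14, had sums of 4705 and 4689 FPKM, so RNA of these markers was plentiful at both ages. The paper counts differentiating taste cells among the cells that express Krt14. The sums therefore cannot be assigned to cells other than taste cells, and the share of any cell type was not measured. Of the markers of keratinized suprabasal cells, Krt10 and Lor were lower by 1.5-fold, as Asprv1 was, and Krt1 fell short of it with a log2 change of -0.57. The 3 genes had sums of 1482 and 831 FPKM, most of it Lor, and none of them was at 0. Filaggrin (Flg), also planned as a marker of such cells, was not among the genes read. The part of such cells in the Asprv1 difference was not tested. Krt4 and Krt13, markers of non-keratinized oral epithelium, could not be read, because Krt13 was listed at 0 at both ages and Krt4 at 7334 FPKM in the younger but at 0 in the older mice. Of 8 hard keratins, 3 were expressed and 0 reached 1.5-fold. Markers of other tissue had smaller sums than the basal epithelial markers, but not all were below the sums of the taste cell markers. Sums went from 7.56 to 17.1 FPKM for 6 muscle genes, all higher at 6 months and led by Tnnc2 at 2.14 and 5.57 FPKM. They went from 43.6 to 28.7 FPKM for 6 fibroblast genes, almost all of it Dcn. The sums were 300 and 262 FPKM for 6 leukocyte genes, almost all of it Lyz2, and 102 and 31.1 FPKM for 7 genes of von Ebner glands, among which 3 were listed at 0 at both ages. In the von Ebner gland sum most of the difference was that of Lipf, at 83.7 and 14.7 FPKM, whereas Dcpp2 was higher at 6 months, at 1.45 and 3.28 FPKM.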

How the data were processed

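RNA of pooled CV/Fol taste cells was sequenced at 2 and 6 months of age, from 3 pools per age. The authors mapped reads with TopHat2 2.0.7 to GRCm38/mm10, used RefSeq genes, and quantified them with Cufflinks 2.1.1 and Cuffdiff. The deposited table gives 1 FPKM value per gene and age, which is the authors' value over the 3 pools, and the library normalization of Cuffdiff is not given in the sources used here. FPKM carries no depth. The column letters B and S match the sample titles of the 6 and 2 month pools. The table also holds p-values of the authors' own comparison, which were not used, and no test was made here.

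Changes were log2(FPKM + 1) at 6 months minus 2 months, for genes averaging 1 FPKM or more, and 1.5-fold was counted. The enzymes and lists were chosen with earlier results of these data known. Genes named are the enzymes, up to 5 of the highest of each list (some are not reported here), those past 2-fold, with Lce genes given mostly as groups, cell type markers and the 2 genes nearest to an enzyme past 1.5-fold, and genomic neighbours, family members and others were added after their values were seen. Places, exons and coding sequences came from GENCODE M21 (GRCm38) and promoters from RefSeq (GRCm38.p6). Alternatives were 0.1 as pseudocount, equal upper quartiles, all genes, genes averaging 5 FPKM or more, and 2-fold. Python 3.11.15, numpy 2.4.6, pandas 2.3.3, Biopython 1.88 and matplotlib 3.10.9 were used.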

Additional observations from a re-analysis of the deposited data

How the results depend on the processing

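No paired analysis was possible because single pools have no values here, and for the same reason no pool could be left out. With no spread between pools to measure against, a value was taken as moved past 0.2 on the log2 scale and a count past 1.5 times. Of 33 values recomputed, 31 stayed within those limits and 0 of the called values changed sign. The exceptions were Padi3, which went from 0.07 to 0.40 with a pseudocount of 0.1, and the number of expressed genes lower at 6 months, which went from 217 to 131 at 2-fold, where the larger fold itself takes fewer genes. Asprv1 was at -1.06 with a pseudocount of 0.1 and at -1.02 with equal upper quartiles, which raised the 6 month values 1.03 times. The number of enzymes counted as lower was 1 in every alternative computed, at 2-fold in 1 of them. With Asprv1 at -1.06 and the next enzyme, Aloxe3, at -0.38, the alternatives had little room to alter that count. Leaving out small RNA genes and genes listed at 0 in 1 age, chosen after seeing the data, gave 145 lower genes. The depth of the pools is unknown, and a level such as that of Padi3 cannot be told from 0.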

Other observations

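Of the 12652 expressed genes, 79 were listed at 0 in 1 age and above 0 in the other, and all but 3 of these were small RNA genes. Among the exceptions were the keratin genes Krt4, with 7334 FPKM at 2 months and 0 at 6 months, and Krt6a, listed at 0 at 2 months and with 3391 FPKM at 6 months. An exact 0 for an abundant keratin can be a failed estimate, so no fold is given for either. Both were chosen once their values were known, and the cause was not tested.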
